A study of Mus musculus with 14 samples.

Results

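Nptx1, Vsnl1, Lin7b, Gap43 and Marcks are genes best known from neurites and synapses, and here they were followed through the muscle wall of mouse gut. They are 5 of the 40481 genes in the bulk count table and 5 of the 20886 genes with enough counts to be tested, so no member was lost to the filter on low counts. They were listed because of their large differences between Carmn iKO and WT libraries in jejunum or in both tissues, in these same libraries. Those differences are therefore given as descriptions, without a test. The readouts from colon nuclei were not used by that choice.

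Total RNA was sequenced from the muscularis, the outer muscle coat with its nerve plexus, of colon and jejunum of C57BL/6 mice. The genotype is labelled Carmn iKO, a knockout of the long noncoding RNA gene Carmn, or WT mTmG, a wild type carrying a membrane-targeted 2-colour fluorescent reporter. There were 3 bulk libraries for each of the 4 groups, named by a tag (m1, t4, t6 or t1, t6, t7 in colon and m1, t1, t4 or t1, t6, t7 in jejunum), plus 1 library of colon nuclei per genotype with RNA and open-chromatin counts. Both nuclei libraries came from colon, so nothing here shows which jejunal cells carry these genes. The sources used here do not give the age of the mice, the way and time the deletion was made, or whether the KO mice also carry the reporter. Nothing says whether libraries of a group are separate animals, so the spread between them may be partly technical.

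Bulk depth was 24254905 to 44315104 counts per library. Carmn itself was not lower in the bulk libraries labelled KO: it lay between 303.9 and 717.9 counts per 1000000 (CPM) in KO colon against 171.5 to 351.5 in WT colon, and between 817.5 and 996.1 in KO jejunum against 205.8 to 326.2 in WT jejunum. In the nuclei it was lower in the library labelled KO, with 219.6 against 661.3 UMI CPM (unique molecular identifiers, UMIs, per 1000000 UMIs of the same nuclei). The sources used here do not give the deleted exons, so KO below means the libraries labelled KO. On the first 2 principal components, which hold 27.9% and 17.4% of the variance, the KO colon t4 and KO jejunum m1 libraries lay apart from the others of their groups. Some results are given with and without them further on. In bulk tissue, fewer cells of a type and less RNA per cell cannot be told apart.

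Neurites grow and synapses form through proteins that act outside, under and inside the cell membrane. Nptx1 encodes neuronal pentraxin 1, a secreted protein that clusters AMPA-type glutamate receptors, and Vsnl1 encodes visinin-like protein 1, a calcium sensor that moves to membranes when calcium rises. Lin7b encodes a small PDZ-domain scaffold that works with Cask and Mpp proteins to place receptors and channels. Gap43 encodes the growth-associated protein of growth cones, and Marcks encodes an abundant actin- and phospholipid-binding substrate of protein kinase C; both are tied to the inner face of the membrane by lipid anchors. In the gut, enteric neurons and glia of the muscularis use much of this machinery, while Marcks is made by many cell types.

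The 5 genes lie on 5 chromosomes and all on the minus strand of GRCm38. Nptx1 is at chr11:119538719-119547753, Vsnl1 at chr12:11325242-11436613 and Lin7b at chr7:45367891-45370583. Gap43 is at chr16:42248442-42340651 and Marcks at chr10:37133375-37138920, and all 5 are annotated as protein coding. Exons of Lin7b share 58 bases with Mtag2 and 299 bases with Gm45619, which run on the opposite strand. No source used here says whether counting used strand, so the Lin7b counts are uncertain to that extent. Mtag2 itself had at most 2 counts in any library, and no counts are given here for Gm45619. How reads on shared bases were assigned is not known. Gap43 holds Mir6540 in an intron, on the same strand and outside its exons.

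Promoter sequences are shown for Lin7b and Vsnl1, because open chromatin was listed over their starts in the colon nuclei. Each runs 5′ to 3′ on the minus strand from 250 bases before the start to 50 bases after it, from RefSeq on GRCm38.p6. Capitals mark the GC box GGGCGG, searched on both strands. Lin7b is at chr7:45370515-45370814 and Vsnl1 at chr12:11436529-11436828.
Lin7b: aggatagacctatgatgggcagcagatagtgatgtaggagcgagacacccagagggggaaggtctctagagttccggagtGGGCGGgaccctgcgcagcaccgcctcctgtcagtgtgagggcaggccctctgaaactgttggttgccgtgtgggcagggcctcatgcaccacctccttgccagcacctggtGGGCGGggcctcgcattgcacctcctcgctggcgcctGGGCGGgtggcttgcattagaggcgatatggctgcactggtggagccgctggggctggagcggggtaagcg
Vsnl1: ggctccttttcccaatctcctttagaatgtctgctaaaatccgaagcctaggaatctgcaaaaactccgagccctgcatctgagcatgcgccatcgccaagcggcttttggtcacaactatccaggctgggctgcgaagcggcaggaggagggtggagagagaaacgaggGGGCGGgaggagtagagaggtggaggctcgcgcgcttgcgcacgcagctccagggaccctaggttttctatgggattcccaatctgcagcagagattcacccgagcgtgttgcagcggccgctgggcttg
The Lin7b window holds 3 GC boxes and the Vsnl1 window 1, and 35.7% of the 32841 promoters in the RefSeq table hold at least 1. The G and C share is 64.7% for Lin7b and 58.7% for Vsnl1, beside a median of 52.7% over all promoters. The CArG box, the serum response factor motif of many smooth muscle genes, has no match in either window. It is found in 1.6% of all promoters, and the search says nothing of the factor itself. RefSeq lists a further Vsnl1 promoter, at chr12:11435602-11435901, which is not printed. That window holds 0 GC boxes and 0 CArG boxes, and its G and C share is 44.3%.

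Nptx1, Vsnl1 and Lin7b share a pattern in the bulk libraries, high in WT jejunum and low in the other 3 groups. Nptx1 stood at 50.79, 160.3 and 51.63 CPM in WT jejunum. In KO jejunum it was at 1.269, 7.720 and 4.324 CPM, in WT colon at 2.256, 1.923 and 1.327, and in KO colon at 1.498, 1.665 and 1.165. Every WT jejunum library was above all 9 others, and the t6 library stood well above the other 2 WT jejunum libraries. The order of group means was WT jejunum (87.6 ± 63.0 CPM, SD, n = 3), KO jejunum (4.44 ± 3.23), WT colon (1.84 ± 0.47) and KO colon (1.44 ± 0.25), and the ranges of the last 3 groups overlapped their neighbours'. KO minus WT was −4.29 on the log2 scale (SE 0.65) in jejunum and −0.36 (SE 0.61) in colon. The jejunum difference was −3.52 without the WT jejunum t6 library and −4.95 without the KO jejunum t1 library.

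Vsnl1 stood at 10.06, 13.46 and 9.004 CPM in WT jejunum. It was at 1.117, 1.758 and 1.494 CPM in KO jejunum, at 2.132, 2.336 and 2.185 in WT colon and at 2.062, 1.180 and 1.773 in KO colon. The WT jejunum libraries were again all above the rest, and the KO values in colon lay just below the WT values there. KO minus WT was −2.89 (SE 0.32) in jejunum and −0.40 (SE 0.30) in colon. The spread between replicate libraries, pooled over the 4 groups, was smallest for this gene (SD 0.30 on the log2 scale) and largest for Nptx1 (SD 0.84).

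Lin7b stood at 13.26, 14.92 and 12.44 CPM in WT jejunum. It was at 0.660, 1.786 and 0.453 CPM in KO jejunum, at 3.553, 2.446 and 2.185 in WT colon and at 2.670, 0.971 and 2.152 in KO colon. Group means ran from 13.5 ± 1.26 CPM in WT jejunum through 2.73 ± 0.73 in WT colon and 1.93 ± 0.87 in KO colon to 0.966 ± 0.717 in KO jejunum (SD, n = 3), and below WT jejunum each group overlapped the next. KO minus WT was −3.80 (SE 0.54) in jejunum and −0.49 (SE 0.49) in colon. Without the KO jejunum t1 library, its highest KO jejunum value, the jejunum difference was −4.635.

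Gap43 had the opposite direction and showed it in both tissues. It was at 143.7, 109.8 and 156.8 CPM in KO colon against 46.66, 28.63 and 35.62 in WT colon. In jejunum it was at 290.0, 210.6 and 212.2 CPM in KO against 34.07, 33.59 and 21.39 in WT. No KO library overlapped a WT library in either tissue. The order was KO jejunum (237.6 ± 45.4), KO colon (136.8 ± 24.3), WT colon (37.0 ± 9.1) and WT jejunum (29.7 ± 7.2 CPM, SD, n = 3), of which the WT groups overlapped. KO minus WT was 1.89 (SE 0.25) in colon and 3.001 (SE 0.264) in jejunum.

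Marcks was lower in every KO library than in every WT library of its tissue. It was at 106.7, 163.0 and 77.44 CPM in KO colon against 352.0, 442.5 and 678.6 in WT colon. In jejunum it was at 128.3, 80.28 and 87.31 CPM in KO against 366.4, 528.7 and 569.3 in WT. The WT groups overlapped each other, as did the KO groups. KO minus WT was −2.09 (SE 0.34) in colon and −2.31 (SE 0.34) in jejunum. Per kilobase of exon in WT jejunum, the scale on which genes can be compared, Marcks led with 120.6 CPM, followed by Gap43 at 19.5, Nptx1 at 16.8, Lin7b at 9.25 and Vsnl1 at 5.54.

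**Figure D1:**
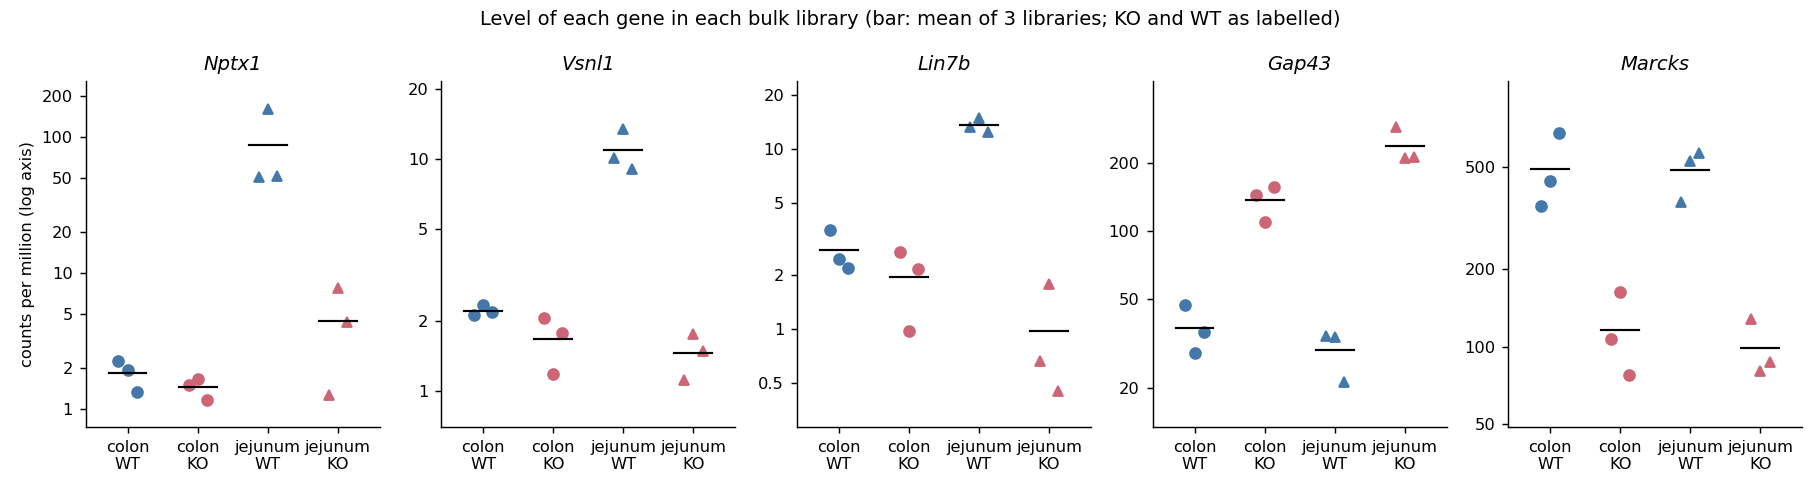
CPM (log axis) of the 5 genes in each of the 12 bulk libraries, with circles for colon, triangles for jejunum, blue for WT, red for KO and a bar at the mean of 3 libraries. Nptx1, Vsnl1 and Lin7b are high in the WT jejunum libraries alone, Gap43 is higher and Marcks lower in the KO libraries of both tissues.

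For orientation, 0.388% of tested genes differed between KO and WT in colon and 0.215% in jejunum (edgeR quasi-likelihood test, Benjamini-Hochberg adjusted p below 0.05). The members were picked on these contrasts, so all 5 being among the jejunum calls and 2 among the colon calls restates the choice. Groups without overlap between KO and WT made up 19.2% of all tested genes in colon and 22.2% in jejunum, and groups without overlap between tissues made up 22.9% in WT and 19.6% in KO. The difference between the tissues in the KO effect was called for 0% of genes by edgeR, with 869 genes at an unadjusted p below 0.05, for 38 genes by DESeq2 and for 0 by limma voom. It was 3.93 (SE 0.86) for Nptx1, 2.48 (SE 0.43) for Vsnl1, 3.30 (SE 0.71) for Lin7b, −1.11 (SE 0.35) for Gap43 and 0.22 (SE 0.46) for Marcks, on the log2 scale as colon minus jejunum. These 5 values come from the contrasts that chose the genes and carry no test.

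Colon against jejunum, averaged over genotypes, is another contrast, but it rests in part on the same WT jejunum libraries that made 3 of the genes stand out, so its values are descriptions too. Nptx1 was lower in colon by a log2 difference of −3.60 (SE 0.45) and Vsnl1 by −1.05 (SE 0.22). The difference was −0.66 (SE 0.35) for Lin7b, −0.24 (SE 0.17) for Gap43 and 0.12 (SE 0.23) for Marcks. Nptx1 and Vsnl1 were past the edgeR threshold, as were 7.28% of all tested genes (762 higher and 759 lower in colon), and nothing is read from that count. With library tags as a replicate block, 76 genes passed between tissues and none of the 5 did, with −2.995 for Nptx1 and −1.001 for Vsnl1. The tissue calls of other genes given further on come from the fit without the block.

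The average hides unlike genotypes. In WT, colon minus jejunum was −5.57 (SE 0.70) for Nptx1, −2.29 (SE 0.31) for Vsnl1 and −2.31 (SE 0.51) for Lin7b, with every colon library below every jejunum library. In KO it was −1.64 (SE 0.61), 0.20 (SE 0.31) and 0.995 (SE 0.503) for the same genes, and the tissues overlapped. Gap43 reversed this: the WT tissues overlapped (0.32, SE 0.25) and every KO colon library was below every KO jejunum library (−0.80, SE 0.25). Marcks was close to 0 in both genotypes (0.01, SE 0.33, in WT and 0.23, SE 0.33, in KO). These values share the WT jejunum libraries with the contrasts above and are descriptions.

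**Figure D2:**
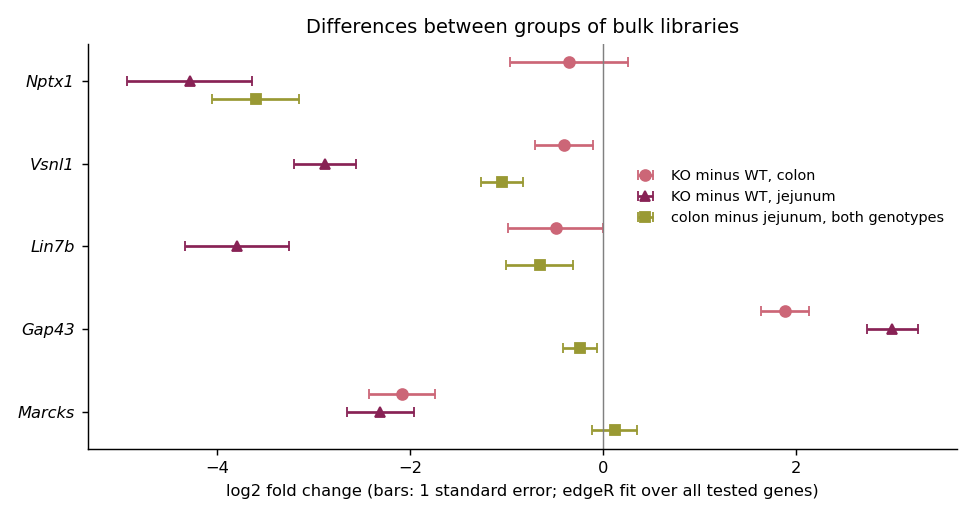
Log2 fold changes with 1 standard error for the 5 genes, from the edgeR fit over all tested genes: KO minus WT in colon (circles), KO minus WT in jejunum (triangles) and colon minus jejunum over both genotypes (squares). The jejunum KO differences of Nptx1, Lin7b and Vsnl1 lie at −4.29, −3.80 and −2.89 while their colon differences lie within 0.5 of 0.

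Across the 12 libraries the 3 genes high in WT jejunum moved together. Pearson r of log2 CPM was 0.938 for Vsnl1 and Lin7b, 0.917 for Nptx1 and Vsnl1 and 0.782 for Nptx1 and Lin7b. The genes were listed for their jejunum differences, so these r restate the choice in part. After subtracting each group's mean, r was 0.663, 0.632 and 0.386. The values within groups rest on 3 libraries a group and carry no interval. Gap43 and Marcks had r = −0.938, and −0.355 within groups. The 12 libraries share 4 groups and their depths, so these are descriptions.

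Among 14762 genes with a symbol and an average log2 CPM of at least 1, the most similar patterns were as follows. For Nptx1 they were Pitpnc1 (r = 0.956), Coq7 (0.954) and Got1 (0.950), whose own KO differences in jejunum were only −0.88, −0.73 and −0.51. For Vsnl1 they were Lin7b, Slc6a9 (0.938), a glycine transporter, and Adcy1 (0.936), a calcium-stimulated adenylyl cyclase. Lin7b was most like Vstm5 (0.955), Vsnl1 and Mgat3 (0.932), and Gap43 most like Ankrd13c (0.966), Lrrc27 (0.949) and Cnn2 (0.947). All r are over the same 12 libraries.

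Marcks was most like Gt(ROSA)26Sor (r = 0.951), followed by Hebp2 (0.942) and E2f6 (0.934). Gt(ROSA)26Sor is the noncoding transcript of the Rosa26 locus, where the mTmG reporter sits, and the membrane tag of that reporter was derived from MARCKS. Gt(ROSA)26Sor was at 9.053, 7.804 and 10.73 CPM in WT colon and 8.324, 9.992 and 11.24 in WT jejunum. It was at 1.237, 1.422 and 1.140 CPM in KO colon and 2.944, 1.566 and 1.788 in KO jejunum, below all WT libraries. It is annotated antisense to a neighbour, so without strand its counts are uncertain to that extent. Its KO minus WT difference was −2.86 (SE 0.31) in colon and −2.24 (SE 0.30) in jejunum, beside −2.09 and −2.31 for Marcks. It was picked for its likeness to Marcks in these libraries, so these differences are descriptions. Whether reporter reads were counted to Marcks was not tested.

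**Figure D3:**
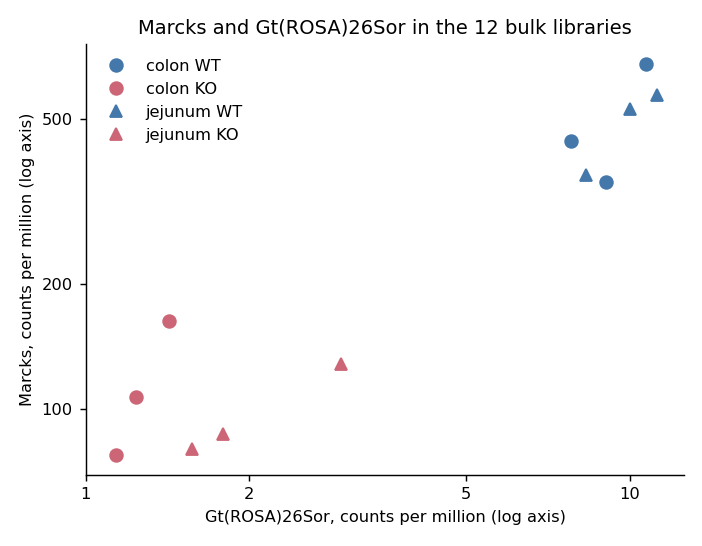
Marcks against Gt(ROSA)26Sor in CPM (both axes logarithmic) in the 12 bulk libraries, with circles for colon, triangles for jejunum, blue for WT and red for KO. The 6 WT libraries lie at or above 352 CPM of Marcks and 7.8 CPM of Gt(ROSA)26Sor, and the 6 KO libraries at or below 163 and 2.94 CPM.

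In the colon nuclei, UMIs of the genes were counted by class of nucleus. Free RNA can add UMIs to nuclei that do not express a gene, and empty droplets were not analysed here, so shares in other classes are given beside the leading one. After filters, 2632 WT and 1585 KO nuclei remained, with median depths of 1698 and 1981 UMIs, and with 8 WT and 7 KO nuclei among the barcodes that both libraries share. Nuclei were clustered and classes named from marker genes, with "-like" marking that the names are rebuilt here. There was 1 library per genotype, so differences between genotypes carry no test and the exact 95% intervals cover counting error only. The doublet caller marked only 0.27% and 0.63% of nuclei, so doublets largely remain. Cluster 16, of very high UMI counts (median 9377) and mitochondrial leading genes, was left unnamed. So was cluster 3 (150 WT and 161 KO nuclei), which had all 10 smooth muscle markers raised. Its 10 leading genes, among them Igfbp2, Fn1 and Postn, held the vascular mural marker Abcc9 but no smooth muscle marker. Cluster 11, with only 3 smooth muscle markers raised, was kept as smooth muscle-like.

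Most Vsnl1 UMIs lay in enteric neuron-like nuclei, which held 50 of 74 (67.6%). In them it reached 22.5 UMI CPM (14.7 to 32.9) in WT and 29.9 (19.2 to 44.6) in KO. It was found in 18 of 134 WT neuron-like nuclei (13.4%, exact binomial 95% interval 8.16 to 20.4), at a median depth of 4891 UMIs, and in 1 of 507 WT glia-like nuclei (0.197%, 0.00499 to 1.09), at 1906 UMIs. Thinned to 1000 UMIs each, 6 of 124 WT and 3 of 68 KO neuron-like nuclei kept a UMI, leaving out 10 and 2 shallower ones. The gene was in both neuron clusters, with 31 UMIs in cluster 15 and 19 in cluster 17, led by Nos1, the gene of the nitric oxide enzyme of inhibitory neurons.

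Gap43 UMIs lay mainly in neurons and glia. Enteric neuron-like nuclei held 282 of its UMIs (52.2%), enteric glia-like nuclei 137 (25.4%) and the unnamed cluster 16 held 91 (16.9%). Its level was 133.0 UMI CPM (112.8 to 155.8) in WT neurons and 159.7 (133.2 to 189.9) in KO neurons. In glia it was 68.3 (54.7 to 84.2) in WT and 93.3 (69.3 to 123.0) in KO. Smooth muscle-like nuclei had 4.15 and 1.14 UMI CPM, and all 8 WT smooth muscle UMIs came from 1 nucleus. In epithelial-like nuclei it was at 0 in 362 WT nuclei. Taking 3 counts as the most that a count of 0 allows, the share of nuclei with a UMI was up to 0.829%, and the exact interval reached 1.01%.

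Most UMIs of Lin7b and Nptx1 lay outside neuron-like nuclei. Lin7b had 22 of its 32 UMIs in smooth muscle-like nuclei (68.75%) and 0 in the 134 WT and 70 KO neuron-like nuclei. In WT smooth muscle-like nuclei it reached 10.4 UMI CPM (6.33 to 16.0), from 20 of 736 nuclei (2.72%, 1.67 to 4.17), beside 0 (0 to 3.19) in WT neuron-like nuclei. In WT, 3 of 507 glia-like nuclei (0.592%, 0.122 to 1.72) had a Lin7b UMI, at a median depth of 1906 UMIs against 1916 in smooth muscle-like nuclei. With cluster 3 counted as smooth muscle-like, a choice made after seeing the data, 78.1% of the Lin7b UMIs lay in that class. Its relatives were placed otherwise: Lin7a had 263 UMIs in neuron-like, 280 in glia-like and 1 in smooth muscle-like nuclei, and Lin7c was spread from 13.8 UMI CPM in neuron-like to 48.3 in epithelial-like nuclei. Nptx1 had 15 UMIs in all, of which 8 were in epithelial-like nuclei of WT, 7 of them in cluster 8, led by Clca1 and Muc2, genes of mucus-secreting goblet cells. They came from 7 of 362 epithelial-like nuclei (1.93%, 0.781 to 3.94), beside 2 of 736 smooth muscle-like (0.272%, 0.0329 to 0.978) and 1 of 507 glia-like nuclei (0.197%, 0.00499 to 1.09). It was at 0 in 134 WT neuron-like nuclei (up to 2.24% by 3 counts, 2.715% by the exact interval) and had 1 UMI in 70 KO neuron-like nuclei. The part of free RNA in counts this low was not tested.

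Marcks was broad. Glia-like nuclei held 94 of its 421 UMIs (22.3%), the unnamed cluster 16 held 87 (20.7%) and macrophage-like nuclei 57 (13.5%). In UMI CPM it was highest in KO in macrophage-like nuclei, at 196.2 (145.6 to 258.7), ahead of glia-like nuclei at 69.05 (48.6 to 95.2). In WT, lymphatic endothelial-like nuclei at 95.6 (43.7 to 181.4) and macrophage-like nuclei at 84.0 (33.8 to 173.0) had the highest values, with wide intervals that overlap. Smooth muscle-like nuclei were low, at 9.85 (5.93 to 15.4) in WT and 17.1 (9.59 to 28.3) in KO.

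**Figure D4:**
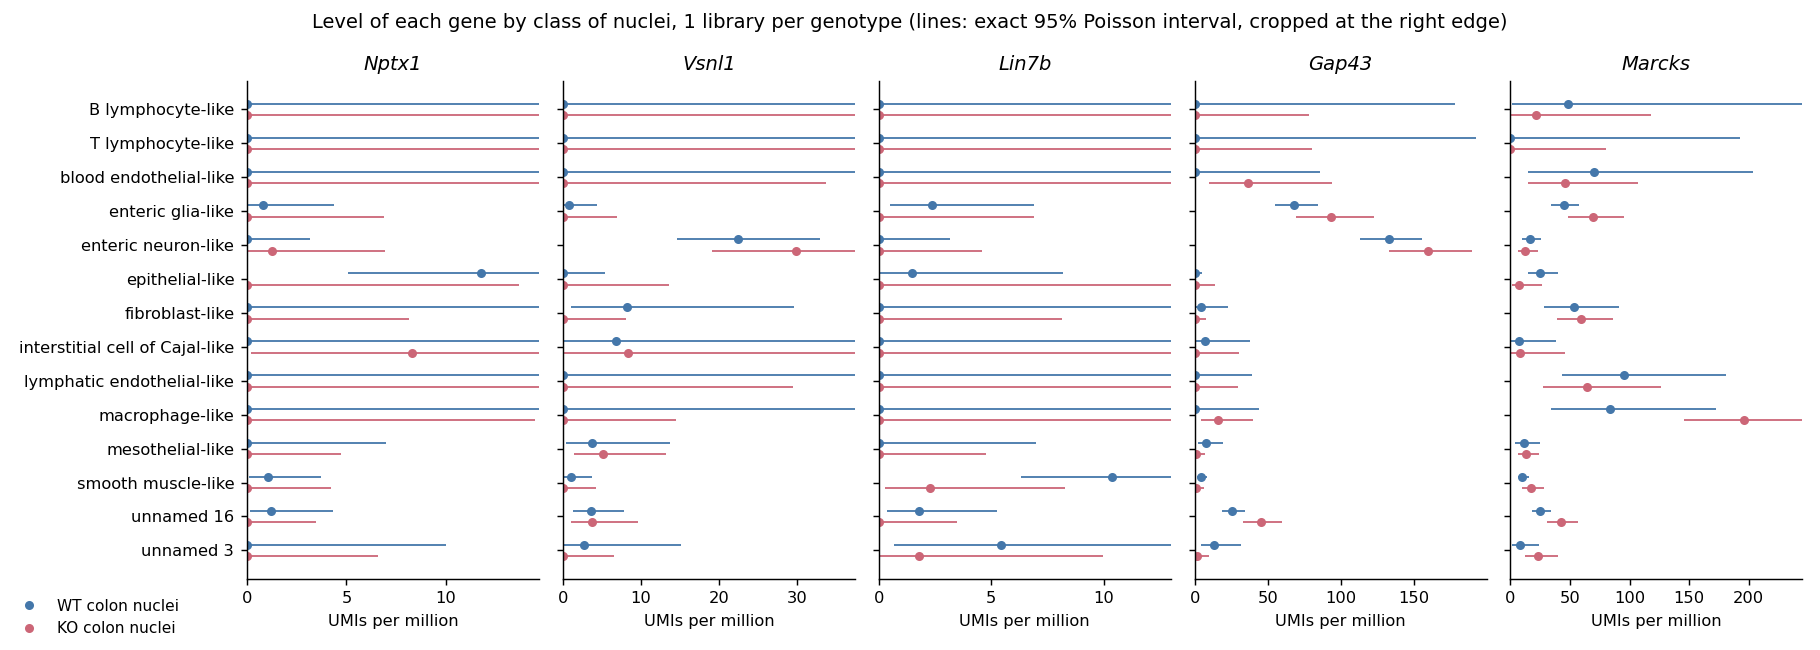
UMI CPM of the 5 genes in each class of colon nuclei, WT in blue and KO in red, 1 library each, with exact 95% Poisson intervals. Vsnl1 and Gap43 peak in enteric neuron-like nuclei (22.5 and 133.0 in WT), Lin7b in WT smooth muscle-like nuclei (10.4), and Marcks in KO macrophage-like nuclei (196.2).

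The interval of the KO over WT ratio in colon nuclei left out the bulk colon ratio for Marcks, Gap43 and Lin7b. For Marcks it was 1.56 (1.28 to 1.89) over all nuclei, from 197 WT and 224 KO UMIs, while the bulk ratio was 0.236. In 8 of the 10 classes with at least 10 Marcks UMIs the whole interval lay above the bulk ratio, among them glia-like (1.54, 0.992 to 2.38), neuron-like (0.760, 0.316 to 1.72) and smooth muscle-like nuclei (1.74, 0.822 to 3.61). The other classes were epithelial-like (0.297, 0.0333 to 1.252, from 17 and 2 UMIs) and lymphatic endothelial-like nuclei (0.670, 0.225 to 1.96). All classes come from the same 2 libraries, so they do not repeat the comparison. The genes were picked for large bulk differences, and how often other genes depart from bulk was not tested. With cluster 3 added to the smooth muscle-like nuclei, the Marcks ratio there was 2.04 (1.12 to 3.74). Macrophage-like nuclei, rich in Marcks, were 50 of the WT and 142 of the KO nuclei. Gt(ROSA)26Sor was lower in the KO nuclei too, with 21.2 against 34.9 UMI CPM. Its bulk colon difference was larger, lower in KO by a fold of 7.25.

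For Gap43 the ratio in nuclei was 1.07 (0.899 to 1.27), while in bulk colon it was 3.70. In neuron-like nuclei it was 1.201 (0.942 to 1.53) and in glia-like nuclei 1.37 (0.946 to 1.96). It was largest in the unnamed cluster 16, at 1.76 (1.14 to 2.715), and all 3 class intervals lay below the bulk ratio. Over 11013 genes with at least 100 UMIs the median log2 ratio was 0.03, with the 5th and 95th percentiles at −0.64 and 0.97. Nuclear 3′ counts and whole-tissue RNA are unlike measures, and no nuclei replicate exists among the files analysed here.

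For the 3 genes whose bulk colon difference was small, counts were low. Lin7b had 29 WT and 3 KO UMIs, a ratio of 0.142 (0.0276 to 0.457). The bulk colon ratio, 0.711 (0.506 to 0.999 at 1 SE), lay above that interval. In smooth muscle-like nuclei alone the interval held the bulk ratio. The Lin7b counts there were 20 against 2 UMIs (0.220, 0.0250 to 0.907), and 22 against 3 with cluster 3 added (0.218, 0.0418 to 0.727). Most of that class lay in clusters 0 and 2 in WT (306 and 275 of 736 nuclei) and in clusters 0 and 13 in KO (104 and 76 of 263), and within cluster 2 the Lin7b UMIs were 12 and 1. Nptx1 had 13 WT and 2 KO UMIs (0.211, 0.0231 to 0.930), and epithelial-like nuclei, its main class, were 362 of the WT and 136 of the KO nuclei. Vsnl1 had a ratio of 1.10 (0.675 to 1.79), beside 0.756 in bulk.

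**Figure D5:**
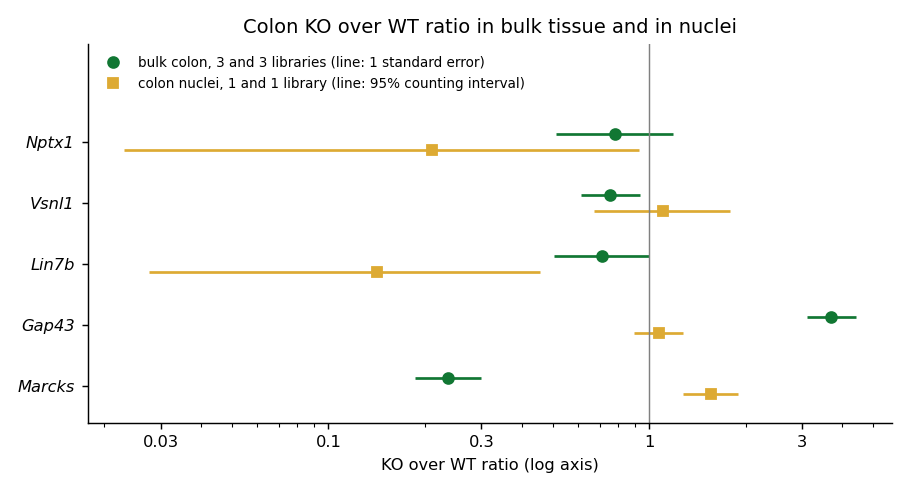
KO over WT ratio in colon on a log axis, with bulk tissue in green (3 libraries a group, line of 1 standard error) and nuclei in yellow (1 library a genotype, line of the 95% counting interval). Marcks lies at 0.236 in bulk and 1.56 in nuclei, Gap43 at 3.70 and 1.07, and Lin7b at 0.711 and 0.142.

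Open chromatin was listed over the start of Lin7b in both nuclei libraries, at chr7:45370142-45371032 in WT and chr7:45369846-45370991 in KO. Both cover the whole Lin7b promoter printed above. The WT region had counts in 21 of 736 smooth muscle-like, 12 of 507 glia-like and 10 of 134 neuron-like nuclei, so neuron-like nuclei without a Lin7b UMI still had counts there. The KO region had counts in 9 of 263 smooth muscle-like and 6 of 70 neuron-like nuclei. A further region reached within 1000 bases of the start of a shorter transcript, at chr7:45366832-45367690 in WT and chr7:45366542-45367751 in KO. It lay past the 3′ end of Lin7b and inside Mtag2. Its centre was 1341 bases (WT) and 1456 bases (KO) downstream of that start. At Vsnl1 a region was listed in WT, at chr12:11436072-11437163, with its centre 4 bases before the start. It had counts in 10 of 134 neuron-like, 4 of 337 mesothelial-like, 5 of 736 smooth muscle-like and 0 of 50 macrophage-like nuclei. These shares are not adjusted for depth. Relative to all region counts of a class, it was at 51.1 CPM (30.28 to 80.75) in neuron-like nuclei. The level was 38.31 (17.52 to 72.72) in mesothelial-like and 16.99 (8.147 to 31.24) in smooth muscle-like nuclei. Both intervals overlap that of neuron-like nuclei, and the 0 in macrophage-like nuclei allows up to 73.71. The lists were made separately per library and the WT list is longer (35003 against 26493 regions), so a region listed in 1 of them shows no change. None within 1000 bases of a start was found in the lists for Nptx1, Gap43 or Marcks.

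The marker genes of whole cell types give the setting for the bulk differences. Of 13 enteric neuron markers, 8 were higher and 5 lower in KO colon (median log2 difference 0.03) and 12 were lower in KO jejunum (median −0.41), with 0 called by edgeR in either and 0 and 2 at an unadjusted p below 0.05. Their summed level overlapped between genotypes: 1570 to 2048 CPM in KO colon and 1213 to 1908 in WT colon, 739.5 to 1247 in KO jejunum and 820.5 to 1081 in WT jejunum. All 13 were higher in colon than in jejunum on average (3 called), the opposite direction to Vsnl1 and Nptx1. The 9 glia markers also overlapped, at 275.0 to 366.6 CPM in KO colon and 280.3 to 342.9 in WT colon, and 140.7 to 231.6 and 186.0 to 193.6 in jejunum. The 9 macrophage markers summed to 603.1 to 1424 CPM in KO jejunum and 192.6 to 413.4 in WT jejunum, without overlap, and to 411.3 to 1139 and 365.4 to 555.5 in colon. In KO colon the t4 library held the 1139, while m1 and t6 stood at 469.1 and 411.3. Smooth muscle, the main class of Lin7b in nuclei, had all 10 markers on the lower side in KO colon (median −0.61, 0 called by edgeR, 3 at an unadjusted p below 0.05), with sums of 34880 to 47530 CPM in KO and 51780 to 75570 in WT, without overlap. In jejunum the smooth muscle sums overlapped, at 49570 to 93640 CPM in KO and 48310 to 53350 in WT. The KO jejunum m1 library held the 93640, while t1 and t4 stood at 49570 and 50350. The 8 vascular mural markers summed to 2181 to 3517 CPM in KO jejunum and 4111 to 5504 in WT jejunum, although 6 of the 8 were on the higher side (median 0.40, 0 called by edgeR, 3 at an unadjusted p below 0.05). The 8 blood endothelial markers were all on the higher side in KO jejunum (median 0.63, 0 called by edgeR, 2 at an unadjusted p below 0.05), with sums of 294.1 to 528.5 and 122.3 to 270.1 CPM. The 9 epithelial markers ran from 91.6 to 4031 CPM in WT colon alone, and from 1249 to 2772 in KO colon, 327.4 to 800.0 in WT jejunum and 441.6 to 989.6 in KO jejunum. No marker of these lists was at 0 in every library, and the part of cell makeup in the 5 genes' differences was not tested.

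Nptx1 acts with other pentraxins on AMPA receptors. Of 10 genes of that list, 0 were called by edgeR in KO colon or KO jejunum, with 2 at an unadjusted p below 0.05 in each, and the medians were −0.23 and −0.01 beside 0.00 and 0.02 over all tested genes. Its nearest relative Nptx2 stood at 10.3 ± 3.1 CPM in KO jejunum and 33.5 ± 0.8 in WT jejunum (SD, n = 3), a difference of −1.71 (SE 0.47, edgeR adjusted p = 0.16). The pentraxin receptor gene Nptxr stood at 30.2 ± 2.7 and 31.0 ± 1.4 CPM there. Between tissues 5 genes passed: Nptx2 (−2.69, edgeR adjusted p = 0.00152) and Cacng8 (−1.90, 0.00785), an AMPA receptor auxiliary subunit, were lower in colon. Nptxr (0.82, 0.0267) and the receptor subunits Gria3 (0.66, 0.0292) and Gria4 (1.14, 0.0152) were higher there.

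Vsnl1 belongs to a calcium-sensor family whose 12 other listed genes included 1 call in the KO contrasts. Ncald, neurocalcin delta, fell in KO colon, from 114.1 ± 27.5 to 42.5 ± 12.9 CPM (SD, n = 3; −1.42, SE 0.26, edgeR adjusted p = 0.0433). In jejunum it was −1.12 (SE 0.26, edgeR adjusted p = 0.107). Unlike Vsnl1, Ncald was spread in the nuclei, at 319.0 UMI CPM in neuron-like, 279.5 in glia-like and 247.7 in smooth muscle-like nuclei. Hpcal1 stood at 36.3 ± 11.2 CPM in KO colon against 25.1 ± 3.7 in WT colon. List medians were −0.46 in colon and −0.18 in jejunum. Between tissues the potassium-channel-interacting Kcnip2 was lower in colon (−5.92, edgeR adjusted p = 0.00142) and Kcnip4 higher (2.60, edgeR adjusted p = 0.00446).

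Among 13 tested partners of Lin7b, 1 was called in a KO contrast. Mpp7, a scaffold that binds Lin7 proteins, fell in KO colon from 30.4 ± 3.1 to 15.03 ± 0.74 CPM (−1.01, SE 0.14, edgeR adjusted p = 0.0192), and in jejunum was −0.55 (SE 0.14, edgeR adjusted p = 0.139). The list medians were 0.06 in colon and −0.09 in jejunum. Lin7a stood at 3.78 ± 1.18 CPM in KO jejunum and 2.50 ± 0.99 in WT jejunum, and Lin7c at 77.9 ± 19.7 and 58.9 ± 5.3 (SD, n = 3), so both relatives had the higher mean in KO, unlike Lin7b. Mpp7 was also the 1 call between tissues (−0.37, edgeR adjusted p = 0.0477).

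Of 18 growth-cone, calmodulin and protein kinase C genes around Gap43 and Marcks, 0 were called in either KO contrast by edgeR, with 5 and 2 at an unadjusted p below 0.05. The medians were −0.16 in colon and −0.08 in jejunum. Basp1, the third of the growth-cone membrane proteins usually grouped with Gap43 and Marcks, stood at 61.7 ± 57.9 CPM in KO colon and 44.6 ± 10.7 in WT colon, and at 52.8 ± 41.7 and 51.1 ± 4.0 in jejunum (SD, n = 3). Its KO means rested on the KO colon t4 (128.5 CPM) and KO jejunum m1 (100.7 CPM) libraries, and without both the differences were −0.64 in colon and −0.85 in jejunum. Marcksl1, the closest relative of Marcks, stood at 50.3 ± 52.4 CPM in KO colon and 17.4 ± 1.6 in WT colon, a difference of 1.53 (SE 0.62, edgeR adjusted p = 0.285). The KO colon t4 library stood at 110.7 CPM and the other KO colon libraries at 22.8 and 17.35, and without KO colon t4 the difference was 0.21 (edgeR adjusted p = 0.831). The smallest p in colon was that of Pcp4 (−2.73, edgeR adjusted p = 0.0906) and in jejunum that of Crmp1 (2.08, edgeR adjusted p = 0.152). Between tissues Pcp4 (−3.08, edgeR adjusted p = 0.00231) was lower in colon and the kinases Prkca (0.83, 0.0137) and Prkcb (1.66, 0.000214) higher.

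General synaptic genes were listed too, and Snap25 and Syt1 among them are also in the list of enteric neuron markers. Of 14 synaptic vesicle and SNARE genes, 0 were called by edgeR in KO colon or KO jejunum (1 and 0 at an unadjusted p below 0.05). In jejunum 13 of the 14 were on the lower side in KO, with a median of −0.20. The smallest p was that of Slc18a3 in colon (0.64, edgeR adjusted p = 0.329) and of Cplx2 in jejunum (−0.68, edgeR adjusted p = 0.415). Between tissues Syt1, Syn1, Slc18a3 and Unc13a were higher in colon (0.68 to 0.75, edgeR adjusted p between 0.0358 and 0.0462) and Cplx2 lower (−0.96, edgeR adjusted p = 0.0339).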

How the data were processed

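The deposited bulk table holds raw counts per gene. Per the submitters' processing notes the tools included STAR 2.0.4b, featureCounts 1.4.5 and Cell Ranger, with builds GRCm38 and mm10; the sources used here do not give their settings. The deposited nuclei matrices hold counts of UMIs per gene and counts per open region. Every gene value in them was even and was halved; 11.6% and 11.5% of region values were odd. Samples were grouped by their labels.

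Of 40757 table rows, 276 repeats were dropped. All 12 bulk libraries entered 1 edgeR 4.0.16 quasi-likelihood fit (R 4.3.3, TMM scaling, filterByExpr) with 4 group means; limma 3.58.1 and DESeq2 1.42.0 served as alternatives. No replicate pair had identical counts or agreed within sampling noise. The tests were also run on counts simulated from the means, depths and dispersions of these libraries, with an outcome not reported here. Log2 CPM used a prior count of 2.

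Nuclei with at least 500 UMIs and at most 5% mitochondrial UMIs were clustered with scanpy 1.11.5 (2000 variable genes, 30 components, 15 neighbours, Leiden resolution 1). Classes needed 3 markers. Ratios are of UMI CPM, with classes of at least 10 UMIs.

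The members and the gene lists were chosen with earlier results of these data known. Named beyond the members are list genes past an adjusted p of 0.05 in any contrast, the smallest p of a list with none, the nearest family members and the 3 most similar patterns. Some list genes that met this rule are not reported here.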

Additional observations from a re-analysis of the deposited data

How the results depend on the processing

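No called value of the 5 genes changed sign under the alternatives run. Of their 321 recomputed values, 318 stayed on the same side of the threshold or moved by less than the spread. A value that lost its call but moved by less than the spread is among the 318, so that count does not show that calls were kept. The 321 values include the KO contrasts that chose the genes and the shares of UMIs by class. The replicate block (tag within genotype) took the tissue difference to −2.995 for Nptx1 (edgeR adjusted p = 0.0515) and −1.001 for Vsnl1 (edgeR adjusted p = 0.223), and the tissue calls from 1521 to 76. With limma voom it gave 77 jejunum calls. Libraries that share a tag did not deviate together (r from −0.163 to 0.1), so the tags are not shown to pair them, and the cause was not tested. The Lin7b jejunum difference ran from −4.635 (without KO jejunum t1) to −3.448 when single libraries were left out. With the KO colon t4 and KO jejunum m1 libraries out, a choice made after seeing the data, the jejunum differences were −3.89 (Nptx1), −2.76 (Vsnl1), −3.63 (Lin7b), 2.81 (Gap43) and −2.57 (Marcks).

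Counts of called genes depended on the setting. DESeq2 called 2872 genes between tissues, 960 in KO colon, 805 in KO jejunum and 38 for the difference. Without both m1 libraries the counts were 429 in colon, 20 in jejunum and 2 for the difference, and without KO colon t4 and KO jejunum m1 they were 309 and 145. Jejunum gave 26 with total counts and 76 with limma voom. Leaving out single libraries gave 790 (without WT colon t1) to 1835 (without KO colon t4) genes between tissues, 7 (without KO colon t6) to 180 (without KO colon m1) in colon, 2 (without KO jejunum t4) to 172 (without KO colon t4) in jejunum and 0 to 1 for the difference. Other single libraries that moved a count by over 1.5 times were KO jejunum t4 (982), WT jejunum t1 (840) and t6 (929) for the tissues. For colon they were KO colon t4 (39), WT colon t1 (8) and t6 (11), KO jejunum m1 (179) and WT jejunum t1 (25), t6 (32) and t7 (32). For jejunum they were WT colon t1 (25), t6 (26) and t7 (24), KO jejunum m1 (26) and WT jejunum t1 (6), t6 (8) and t7 (4). The Lin7b region counts in smooth muscle-like nuclei were 125.7 CPM within 1000 bases of a start and 66.3 within 500 in WT, and 237.6 and 80.5 in KO. The regions of WT and KO differ in extent and come from separate lists, so these levels are not compared between genotypes. The region past the 3′ end of Lin7b is counted within 1000 bases of a start and drops out within 500.

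Depth limits the nuclei: Nptx1 rests on 15 UMIs and Lin7b on 32.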
